A study of Homo sapiens with 2 samples.

Results

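The cells described here are A375 melanoma cells that outlived attack by cytotoxic T lymphocytes (CTLs) and carried RNA of several of 7 genes: AREG, EGR1, SERPINB2, BMP2, ESM1, IL1RL1 and TMEM158. They were chosen by detection of those genes: a persister barcode with at least 5000 UMIs (unique molecular identifiers, each 1 counted RNA molecule) and at most 20% mitochondrially encoded UMIs had to hold a UMI of all 3 of AREG, EGR1 and SERPINB2, or of at least 4 of the 7. The rule was met by 1264 of 5942 persister barcodes of that depth and quality (21.3%, 95% exact interval 20.2 to 22.3%), out of 7144 persister barcodes and 17895 in the whole series. They are called 7-gene cells below, and the 7 genes the rule genes. They were compared with 2009 persister cells that had 0 or 1 of the 7 genes (comparison cells), while 2669 persister cells in between are called intermediate.

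A375 is an established line grown from a human melanoma. Untreated A375 made up the parental sample, and the persister sample was A375 left alive by 15 days with CTLs directed at the antigen NY-ESO-1, in medium with 7.5 ng/mL interleukin 2, with new CTLs every 3 days; whether the parental cells were given interleukin 2 is not stated. Both were profiled with the 10x Chromium 3' v3 assay, which counts RNA near its 3' end in single cells. Each condition was 1 library, so no difference has a replicate check, no test between groups was possible, and cells of 1 library are not replicates. All intervals are 95% exact intervals that cover counting error only, and all differences describe these libraries.

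Immediate-early genes are switched on within minutes of a growth signal, without new protein synthesis, by transcription factors already in the cell, and the ERK kinase cascade is the best known route to them. EGR1 is such a gene and encodes a zinc finger transcription factor. Amphiregulin, the product of AREG, is an EGF family ligand that is shed from the cell surface and activates the EGF receptor, which feeds the same cascade. In melanoma cells with an activated BRAF, as in A375, that cascade is already driven from within.

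The stretches upstream of the start sites of the 3 genes that the first arm of the rule asks for are shown because each holds a different element of stimulus-driven transcription. They are the 250 bases before the RefSeq start (GRCh38.p14), 5' to 3' on the gene's strand, and capitals mark the motif matches. Both strands were searched for TGANTCA (an AP-1 site), TGACGTCA (a cAMP response element), GCGNGGGCG (an EGR site) and the CArG box, which serum response factor binds. The AREG stretch is at chr4:74444886-74445135 (plus strand), the EGR1 stretch at chr5:138465229-138465478 (plus strand) and the SERPINB2 stretch at chr18:63887455-63887704 (plus strand).
AREG: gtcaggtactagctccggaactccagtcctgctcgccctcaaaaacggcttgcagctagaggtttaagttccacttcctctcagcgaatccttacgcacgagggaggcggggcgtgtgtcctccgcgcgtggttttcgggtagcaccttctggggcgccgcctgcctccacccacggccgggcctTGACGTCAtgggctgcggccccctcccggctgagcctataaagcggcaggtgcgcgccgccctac
EGR1: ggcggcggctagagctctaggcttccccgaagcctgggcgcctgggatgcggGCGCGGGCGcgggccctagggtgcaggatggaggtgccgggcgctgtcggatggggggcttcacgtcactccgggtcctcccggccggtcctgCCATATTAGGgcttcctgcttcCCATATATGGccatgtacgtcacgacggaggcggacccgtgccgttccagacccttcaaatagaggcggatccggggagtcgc
SERPINB2: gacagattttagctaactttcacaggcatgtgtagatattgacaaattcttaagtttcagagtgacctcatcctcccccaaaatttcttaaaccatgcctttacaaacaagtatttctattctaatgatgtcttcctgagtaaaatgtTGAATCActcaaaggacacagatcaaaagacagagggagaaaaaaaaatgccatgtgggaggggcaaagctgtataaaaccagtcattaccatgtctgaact
The AREG stretch held TGACGTCA beginning 65 bases before the start and none of the other motifs. The EGR1 stretch held 2 CArG boxes, beginning 105 and 83 bases before the start, and 1 GCGNGGGCG at 198. The SERPINB2 stretch held 1 TGANTCA at 102 bases and none of the others. Among all 35116 RefSeq stretches of the same length, TGACGTCA occurred in 1.65%, the CArG box in 1.16%, GCGNGGGCG in 8.42% and TGANTCA in 6.57%. The ESM1 stretch held none of the 4 motifs, that of TMEM158 held 2 matches to GCGNGGGCG, and 1 of the 2 IL1RL1 start sites held TGANTCA at 191 bases. These matches describe the letters only.

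The 7 genes lie at separate places in the genome. In GENCODE 29 on GRCh38, AREG spans positions 74445134 to 74455009 of chromosome 4, EGR1 138465490 to 138469315 of chromosome 5 and SERPINB2 63871692 to 63903890 of chromosome 18, all on the plus strand. BMP2 spans 6767664 to 6780280 of chromosome 20 (plus strand). ESM1 spans 54977864 to 55022671 of chromosome 5 (minus strand), IL1RL1 102311502 to 102352037 of chromosome 2 (plus strand) and TMEM158 45224466 to 45226278 of chromosome 3 (minus strand). FERMT1, described below, lies on the same chromosome as BMP2, at 6074845 to 6123544 (minus strand).

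The library totals were 80802724 UMIs for the persister and 88214007 for the parental sample, and 38 barcode sequences occurred in both (0.532% of persister barcodes). Mitochondrially encoded UMIs had medians of 7.23% in 7-gene, 8.13% in comparison and 5.90% in parental cells. Depth moved with membership. The median was 15640.5 UMIs and 3801 genes in 7-gene cells, 12275 UMIs in intermediate cells, 10150 UMIs and 2993 genes in comparison cells, and 8164 UMIs in the 9094 parental cells that met the same depth and quality limits.

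The share of 7-gene cells followed depth. Of persister cells with at least 5000 but under 8000 UMIs, 6.81% met the rule (5.17 to 8.77%), and of those with 18000 or more, 47.9% did (44.7 to 51.0%). When every cell was first thinned at random to 5000 UMIs, the shares in the same depth classes were 5.57% (4.09 to 7.38%) and 8.25% (6.6 to 10.2%), and 320 cells met the rule in all (5.39%, 4.83 to 5.99%).

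**Figure D1:**
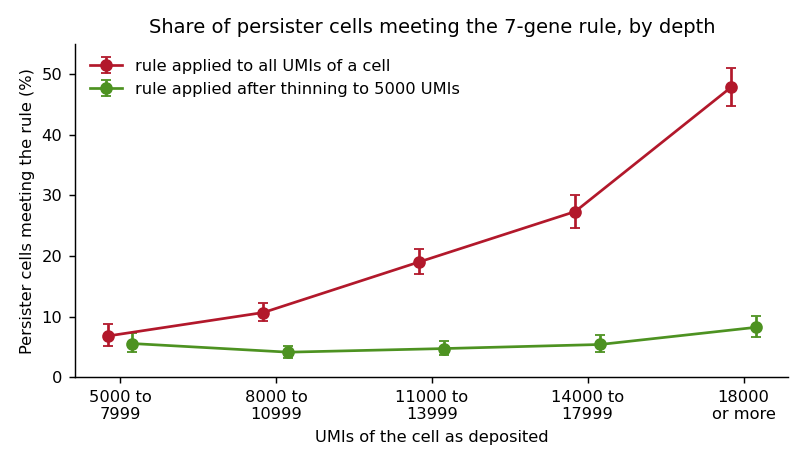
Share of persister cells that met the 7-gene rule (vertical axis, percent) by the cell's UMIs as deposited (horizontal axis), with 95% exact intervals. On all UMIs the share climbs from 6.81% to 47.9%; after thinning every cell to 5000 UMIs it lies between 4.14% and 8.25%.

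Few parental cells showed the combination. Of the 9094 parental cells, 3 met the rule (0.0330%, 0.00680 to 0.0964%), and 1 did at 5000 UMIs, against 320 of 5942 persister cells. All 3 of AREG, EGR1 and SERPINB2 were found in 0 of 9094 parental cells (exact upper limit 0.0406%). None of the 7 genes was detected in 75.7% of parental and 12.5% of persister cells, which were deeper, and in 83.6% and 25.9% when both were thinned to 5000 UMIs. Among the 7-gene cells, 784 held exactly 4 of the 7 genes, 365 held 5, 85 held 6 and 15 held all 7; 15 qualified through AREG, EGR1 and SERPINB2 with no other. All 3 of these were present in 245 cells.

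The levels of the rule genes chose the cells and are given as a description. Levels are counts per 1000000 UMIs (CPM) of the summed group. AREG stood at 509.8 CPM (500.3 to 519.5) in 7-gene cells, 274.3 in intermediate, 41.3 in comparison and 12.7 in parental cells. A 7-gene cell held a median of 3 AREG UMIs and at most 180. EGR1 stood at 97.1, 75.1, 23.2 and 2.51 CPM in the same order of groups. SERPINB2, which encodes an inhibitor of plasminogen activators, stood at 53.6, 9.95 and 1.29 CPM in the persister groups and had 0 UMIs in the parental cells.

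The other 4 rule genes had other roles. BMP2, a ligand of the bone morphogenetic protein family, stood at 77.2, 35.7, 7.58 and 2.32 CPM. ESM1, which encodes a secreted proteoglycan known from endothelial cells, stood at 79.0, 26.1, 2.86 and 2.52 CPM. IL1RL1, the receptor of interleukin 33, stood at 330.0, 121.7, 15.8 and 18.8 CPM. TMEM158, a membrane protein induced by oncogenic RAS, stood at 194.9, 142.2, 36.7 and 12.8 CPM. The comparison cells were chosen for few of these genes and the parental cells were not, so their levels are not set against each other. Interleukin 33 itself had 1 UMI in all 7-gene cells, and IL1RAP, the partner of its receptor, stood at 5.95 against 8.13 CPM in comparison cells.

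Cells just inside the rule held more of the rule genes than those just outside, as the rule itself sets in part. The 784 cells with exactly 4 genes had 544.3 CPM of AREG and 95.5 of EGR1. The 1217 cells with exactly 3 genes other than the AREG, EGR1 and SERPINB2 combination had 350.5 and 85.1 CPM. SERPINB2 was 41.9 CPM inside and 14.8 outside, ESM1 61.6 and 41.6, and IL1RL1 268.0 and 163.8.

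To measure the rule genes on UMIs that did not choose the cells, each cell's UMIs were split at random into 2 equal sets, the rule was applied to one set, and the levels were read from the other. The 570 cells chosen this way and the 3019 with 0 or 1 gene differed 13.7-fold in SERPINB2 (10.7 to 17.9), 11.4-fold in IL1RL1 (10.4 to 12.5), 10.7-fold in ESM1 (8.90 to 13.0) and 6.81-fold in AREG (6.40 to 7.24). The difference was smaller for BMP2 (2.95-fold), TMEM158 (2.64-fold) and EGR1 (1.85-fold, 1.65 to 2.08). On all UMIs, which also chose the cells, the EGR1 ratio was 4.19. Both sets come from the same cells and the same library.

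Each gene was also read in cells grouped only on the other 6, at 5000 UMIs. Cells with at least 3 of the other 6 genes held 9.36 times the SERPINB2 of cells with none, at 44.1 against 4.71 CPM. The ratio was 3.42 for ESM1 (37.2 against 10.9 CPM), 3.27 for AREG (435.1 against 133.3), 2.90 for IL1RL1 (225.4 against 77.7), 2.33 for TMEM158 (191.6 against 82.4) and 2.23 for BMP2 (60.8 against 27.3). EGR1 had the smallest ratio, 1.51, at 79.8 CPM (70.6 to 90.0) against 52.8 (48.3 to 57.6). Each of the 7 was higher where the others were detected, with counting intervals that did not overlap.

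**Figure D2:**
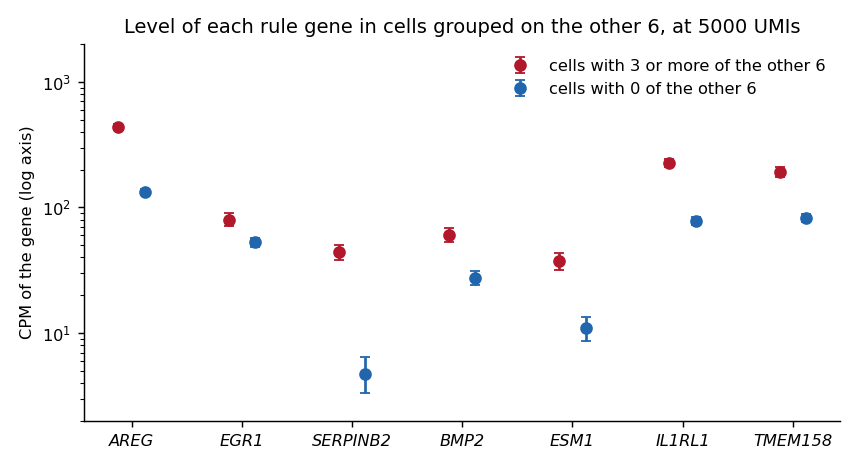
CPM of each rule gene (log axis) in persister cells thinned to 5000 UMIs and grouped on the other 6 genes, with 95% exact Poisson intervals. SERPINB2 shows the widest gap, 44.1 against 4.71 CPM, and EGR1 the narrowest, 79.8 against 52.8 CPM.

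The 7 genes did not move as 1 block. At 5000 UMIs, ESM1 and IL1RL1 showed the largest ratio of joint detection among the pairs: IL1RL1 was present in 47.1% of cells with an ESM1 UMI (42.2 to 52.0%) and in 16.9% of cells without. SERPINB2 was present in 9.38% of cells with AREG and 4.19% of cells without. TMEM158 was present in 57.6% of cells with SERPINB2 and 35.9% without. EGR1 and ESM1 were found together less often than apart: ESM1 was present in 3.94% of cells with EGR1 (3.00 to 5.08%) and 7.85% of cells without. IL1RL1 was also less frequent with EGR1 than without (16.4 against 19.8%), and AREG and ESM1 were found together about as often as apart (6.73 and 6.98%). The rule genes were also found in 149 persister barcodes rich in T cell markers (at least 4 of the list of 14, median 3754 UMIs). A UMI of AREG was present in 10.1% of them, EGR1 in 10.1%, TMEM158 in 15.4%, BMP2 in 9.40%, IL1RL1 in 7.38%, ESM1 in 3.36% and SERPINB2 in 2.01%, and 7 of them met the rule. Stray RNA, doublets and RNA of the T cells themselves cannot be told apart in these barcodes.

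Both arms of the rule admitted cells, and their levels differed. The 245 cells with AREG, EGR1 and SERPINB2 held 13.8 CPM of ESM1, and the 1019 that qualified by number alone held 94.6. For IL1RL1 the values were 204.1 and 360.1 CPM. Genes outside the rule differed as well. FERMT1 stood at 2629 CPM in the 245 cells and 1518 in the 1019, LCE1E at 331.9 and 125.7, ACPP at 174.9 and 80.7, and KLF6 at 80.6 and 49.6. Depth was similar, with medians of 15064 and 15820 UMIs. FOSL1, an AP-1 subunit, was at 548.9 and 584.9 CPM.

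A growth factor early response is the label under which these cells were defined, and few other genes of that response were at least 2-fold higher in them. Genes with at least 10 CPM in either group were compared, as differences of log2(CPM + 1), which understate the change of low genes, and a gene was called at 2-fold on that scale. Over all 7646 genes compared, 146 (1.91%) were called higher and 26 (0.34%) lower in 7-gene than in comparison cells. The contrast is the one the rule used, so these counts describe the cells and support nothing. The median difference of all genes was -0.04.

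Of 20 immediate-early transcription factors compared other than EGR1, 1 was called higher, with a list median of 0.19. With comparison cells weighted to depth the median was 0.15, and with weighting to depth and G2 and M phase UMIs together it was -0.02. The gene called was KLF6, a zinc finger factor, at 55.6 CPM (52.5 to 58.9) in 7-gene, 31.6 in intermediate, 19.5 in comparison and 21.7 in parental cells. FOS stood at 10.8 CPM in 7-gene and 9.79 in comparison cells, JUN at 22.8 and 16.3, JUNB at 153.0 and 129.2, and FOSL1 at 577.9 and 364.3. EGR3, a relative of EGR1, was lower in 7-gene cells without being called, at 7.59 against 11.8 CPM. Its difference of -0.57 was -0.16 with weighting to depth and -0.315 with weighting to depth and G2 and M phase UMIs together. ATF3 (84.8 and 77.2 CPM) and MYC (11.9 and 12.2 CPM) differed little.

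Of 23 genes that report or restrain ERK activity, 3 were called higher and 0 lower, and 15 lay above 0. The list median was 0.19. With comparison cells weighted to depth it was 0.33, beside -0.02 for all genes. With weighting to depth and G2 and M phase UMIs together it was 0.23, beside -0.06 for all genes, and 2 genes were called higher. The 3 called were DUSP1 and DUSP5, phosphatases of the kinase cascade (15.5 against 5.31 and 27.3 against 12.01 CPM), and UPP1, uridine phosphorylase (295.9 against 132.4 CPM). Among the feedback genes most used as a readout of ERK, DUSP6 stood higher without being called, at 337.9 against 238.6 CPM. SPRY4 stood at 24.5 and 21.4 CPM, SPRY2 at 163.2 and 173.0, ETV4 at 104.1 and 120.2, and DUSP4 at 76.0 and 136.9. Against parental cells, 13 of 18 transcription factors were called higher in 7-gene cells and 0 lower, and 10 of 24 ERK output genes higher and 2 lower. Over all 8111 genes of that contrast, 9.31% were called higher and 9.35% lower. However, FOS and JUNB, at 2.72 and 26.8 CPM in parental cells, were also far above that in comparison cells. The cells are therefore named here by their rule.

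**Figure D3:**
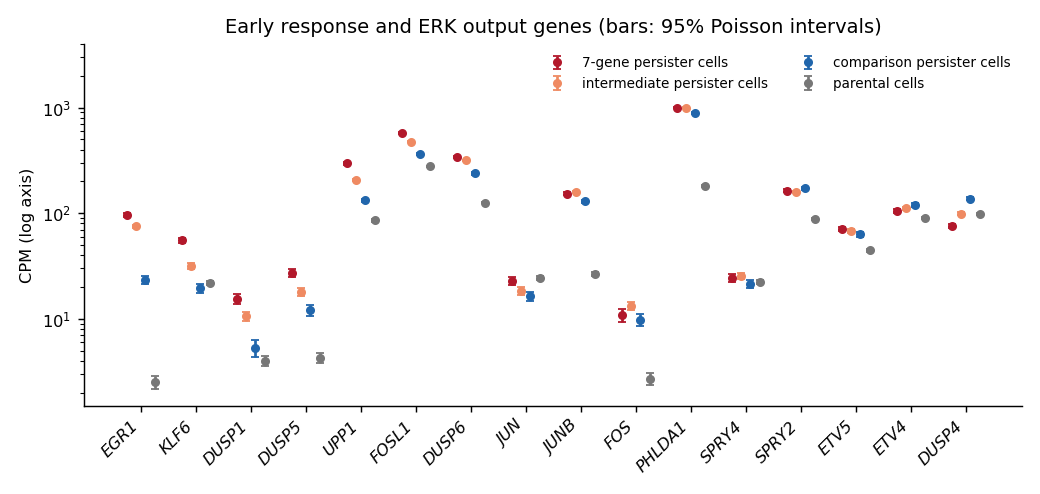
CPM (log axis) of 16 early response and ERK output genes in 7-gene, intermediate, comparison and parental cells, with 95% exact Poisson intervals. EGR1, a rule gene, and KLF6, DUSP1, DUSP5 and UPP1 differ by 2-fold or more between 7-gene and comparison cells, with intermediate cells in between. FOS, JUNB, PHLDA1, SPRY4 and ETV5 lie close together in all 3 persister groups, and DUSP4 is lower in 7-gene cells.

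Around AREG, 1 gene of EGF signalling outside the rule was called. Only AREG, TGFA and HBEGF among 11 EGF family ligands reached 10 CPM. TGFA stood lower in 7-gene cells, at 60.2 against 103.6 CPM, HBEGF stood at 24.4 and 19.4, and EREG had 9 UMIs in all 7-gene cells. Of 10 receptor and feedback genes compared, 1 was called higher and 0 lower. EGFR, the receptor of amphiregulin, stood at 19.6 CPM (17.8 to 21.6) against 7.95 (6.80 to 9.23), with 14.4 in parental cells. ERBB3, which pairs with other receptors of the family and binds neuregulins, stood at 71.4 against 141.4 CPM, just short of the call.

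Around BMP2, 2 of 10 other BMP and TGF-beta pathway genes were called higher and 1 lower. INHBA, a subunit of activin, stood at 727.0 CPM in 7-gene, 522.1 in intermediate, 300.4 in comparison and 61.8 in parental cells. FST, the secreted activin antagonist, stood at 245.7, 170.8, 93.3 and 168.4 CPM. BAMBI, a decoy receptor that BMP signals induce, was called lower, at 5.44 against 14.8 CPM. ID1 and ID3, the standard targets of BMP signalling, were lower in 7-gene than in comparison cells without reaching 2-fold, at 308.4 against 446.5 and 163.7 against 254.0 CPM. Around SERPINB2, none of 6 other plasminogen system genes was called: PLAUR, the urokinase receptor, stood at 123.1 and 77.1 CPM, PLAT, tissue plasminogen activator, at 45.3 and 82.1, and PLAU, urokinase, had 1 UMI.

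Outside the rule, the genes with the largest excess had varied roles. STC1, the secreted glycoprotein stanniocalcin 1, stood at 30.5 CPM (28.2 to 32.9) against 4.62 (3.76 to 5.62). It was detected in 15.5% of 7-gene cells. Its difference was 2.49, and 1.52 without cells that held an LCE1E UMI, both past the call. LCE1E, a late cornified envelope protein of the epidermis, stood at 165.6 against 35.1 CPM and had 1 UMI in parental cells. ACPP, prostatic acid phosphatase, stood at 98.9 against 20.8 CPM, with 0.267 in parental cells. FERMT1 (kindlin-1), which helps to activate integrins, stood at 1732 CPM (1715 to 1750) in 7-gene, 1035 in intermediate, 463.7 in comparison and 64.9 in parental cells. IGFBP3, which binds insulin-like growth factors, stood at 61.3 against 16.1 CPM, and LYPD3, a surface protein of keratinocytes, at 62.8 against 21.4.

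Since 7-gene cells were deeper and more of them were cycling, comparison cells were also weighted to the 7-gene cells' depth and G2 and M phase UMIs together, an alternative chosen after seeing the data. Of 7647 genes compared in that way, 59 (0.772%) were called higher and 19 (0.248%) lower. Of the 139 genes called higher on all cells outside the rule, 32 were called under this weighting and 72 in the random split of UMIs. The weighted difference was 2.97 for LCE1E, 2.84 for STC1, 2.51 for ACPP, 2.20 for IGFBP3, 2.09 for FERMT1, 1.98 for LYPD3, 1.24 for INHBA and KLF6 and 1.16 for EGFR, all still past the call. It was 0.65 for FST, 0.87 for UPP1, 0.97 for CDKN1A and -0.95 for BAMBI, which no longer were.

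An ordering at equal UMIs describes the same genes further. They were picked for their difference between cells with many and few rule genes, so a rise was set in large part by that choice. When all 5942 cells were thinned to 5000 UMIs and grouped by how many of the 7 genes remained, 1540 cells had 0, 1887 had 1, 1446 had 2, 766 had 3 and 303 had 4 or more. The median UMIs as deposited still differed between these groups, at 11027, 11705, 12538, 13577.5 and 13212. FERMT1 stood at 457.9, 842.2, 1280, 1752 and 2406 CPM in that order. LCE1E stood at 28.96, 81.1, 93.2, 164.5 and 223.8 CPM, INHBA at 288.7, 438.6, 635.0, 784.9 and 909.6, and KLF6 at 19.0, 28.0, 38.2, 63.7 and 81.2. ACPP, STC1, IGFBP3, LYPD3 and EGFR also stood higher at each step.

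Apart from EGFR, the same order was seen on both sides of the persister cells' median count of UMIs from G2 and M phase genes (11 of 5000). In cells at or under it, FERMT1 stood at 445.6 CPM with 0 and 3157 with at least 4 rule genes (97 cells), and in cells above it at 483.3 and 2052 (206 cells). LCE1E was mostly found in the cells with few G2 and M phase UMIs: 38.0 and 581.4 CPM there, against 10.3 and 55.3 in the others. EGFR had no steady order in the cells with few such UMIs, at 7.14, 10.7, 7.67, 16.9 and 4.12 CPM. Its difference between 7-gene and comparison cells was 0.998 in the cells with few such UMIs. With all cells thinned to 5000 UMIs it was 0.70, and both values were short of the call.

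**Figure D4:**
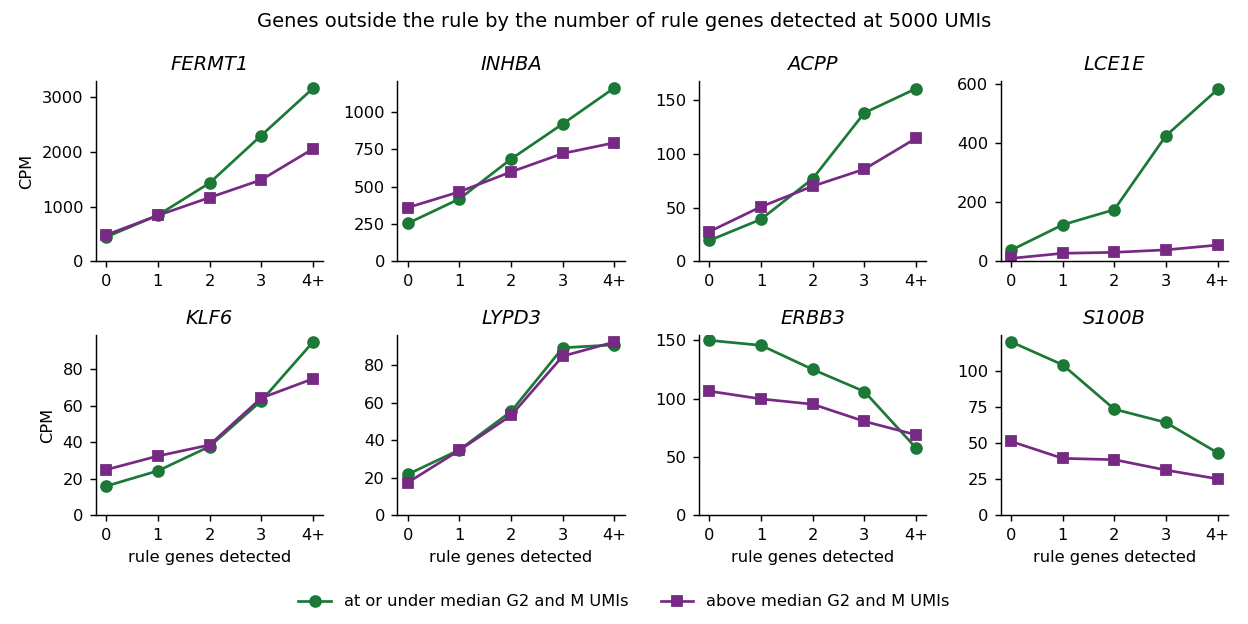
CPM of 8 genes outside the rule (vertical axes, each with its own scale from 0) in persister cells thinned to 5000 UMIs, by the number of rule genes detected, separately for cells at or under and above a median of 11 such UMIs from G2 and M phase genes. FERMT1, INHBA, ACPP, LCE1E, KLF6 and LYPD3 stand higher, and ERBB3 and S100B lower, with more rule genes on both sides of the median.

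Proliferation genes made up the list with the most calls among the lists compared. Of 51 G2 and M phase genes compared, 33 were called higher in 7-gene cells and 0 lower, with a median of 1.08. Weighting comparison cells to depth alone left 0 of the 33 called. UBE2C, which drives mitotic exit, stood at 412.6 CPM against 116.7 in comparison and 567.1 in parental cells, and MKI67, the standard proliferation marker, at 202.5, 72.0 and 311.3. At 5000 UMIs the median cell held 24 G2 and M phase UMIs in the 7-gene group, 7 in the comparison group and 39 in the parental sample. Above the persister median lay 71.1% of 7-gene cells (68.5 to 73.6%), 52.6% of intermediate and 28.97% of comparison cells (27.0 to 31.0%). This difference moved with depth: with comparison cells weighted to depth alone (smallest class 7 comparison cells), the median of the list was 0.42, and with weighting to depth and G2 and M phase UMIs, which uses these genes, it was -0.12. Of 35 S phase genes, 3 were called higher: RRM2, RAD51AP1 and EXO1. Of these calls 1 was left with weighting to depth and 0 with joint weighting, which took the list median from 0.27 to -0.28.

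CDKN1A, the inhibitor of cyclin-dependent kinases known as p21, was also higher in 7-gene cells, at 150.5 against 68.7 CPM, with 40.2 in parental cells. The cells with few G2 and M phase UMIs alone gave a difference of 1.28, so the CDKN1A excess was also present there. CCND1, the D-type cyclin of G1, was lower in 7-gene cells, at 1070 against 1476 CPM.

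Among the genes lower in 7-gene cells, S100B, a calcium-binding protein used as a melanoma marker, stood at 31.5 CPM (29.1 to 33.9) in 7-gene, 60.6 in intermediate, 97.3 in comparison and 47.1 in parental cells. SOX5, a transcription factor of the neural crest and melanocyte lineage, stood at 26.8 against 65.1 CPM, TNFRSF19, a receptor of the tumour necrosis factor family, at 7.31 against 24.5, and FXYD3, a regulator of the sodium pump, at 20.7 against 60.9. SLC26A2, a sulfate transporter, stood at 43.6 against 121.9 CPM. In the ordering by number of rule genes at 5000 UMIs, S100B stood at 97.5, 75.5, 53.7, 42.0 and 31.0 CPM and ERBB3 at 135.6, 125.2, 108.0, 88.8 and 65.4. Both were picked for their difference, which sets this order in large part. Of 13 genes of the neural crest and dedifferentiated list, 1 was called higher (EGFR) and 0 lower. Of 13 melanoma markers compared, 1 (S100B) was called lower and 10 lay below 0, with a median of -0.25, or -0.04 under joint weighting. SOX10 stood at 169.4 and 185.6 CPM.

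Interferon-induced and antigen presentation genes mostly lay below 0 without reaching 2-fold. All 13 MHC class II presentation genes compared lay below 0, with a median of -0.61 and none called: HLA-DRA stood at 340.3 against 526.1 CPM, CIITA, the class II transactivator, at 66.0 against 125.8, and CD74 at 3149 against 3760. All 17 MHC class I genes also lay below 0, with a median of -0.20, and B2M stood at 6346 against 7548 CPM and 675.8 in parental cells. Of 25 interferon-gamma response genes, 1 was called lower and 1 higher, with a median of -0.26. CXCL10, the chemokine that attracts T cells, stood at 41.6 against 102.6 CPM, and SOCS1, which restrains cytokine signalling, at 11.95 against 5.17. None of 27 type I interferon response genes was called, with a median of -0.37. Under the joint weighting the class II median was -0.48, the type I interferon median -0.14 and the class I median -0.10, beside -0.06 for all genes. The interferon-gamma response median was -0.23 under that weighting. IRF1, a transcription factor of the interferon response, stood at 857.4 and 997.9 CPM.

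**Figure D5:**
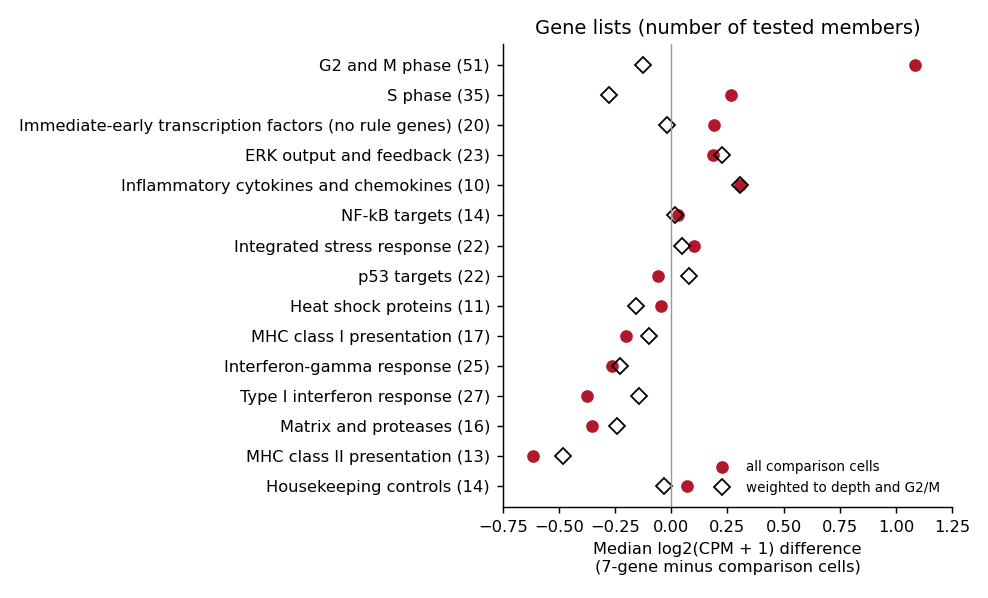
Median log2(CPM + 1) difference between 7-gene and comparison cells (horizontal axis) of 15 gene lists, with the number of compared members in brackets; filled circles use all comparison cells and open diamonds comparison cells weighted to depth and G2 and M phase UMIs. The G2 and M phase median goes from 1.08 to -0.12, while MHC class II presentation stays lowest, at -0.61 and -0.48.

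Markers of other cell types were low in the 7-gene cells. The sum of 14 T cell markers, none of which was at 0 in 7-gene cells, was 20.3 CPM in 7-gene, 20.2 in intermediate, 36.5 in comparison and 35.9 in parental cells. IL7R alone held 31.5 CPM of the parental sum, against 6.94 in 7-gene and 6.98 in comparison cells. At least 2 of the 14 markers were detected in 2.06% of 7-gene and 1.99% of comparison cells, on all UMIs, of which 7-gene cells had more. The sum of 14 cytotoxic effector genes, with 1 at 0 in 7-gene cells, was 20.4, 28.8, 84.2 and 1.63 CPM, and the 3 compared (GZMB, CCL3 and CCL4) were called lower in 7-gene cells. Weighted to depth alone, their differences were -0.44, -0.84 and -0.20, none past the call. Under joint weighting they were -2.315, -2.69 and -2.63, all past the call. Without cells that had at least 2 T cell markers, the CCL3 difference turned from -2.32 to 0.21. The endothelial markers summed to 0.234 CPM in 7-gene cells, with VWF and CDH5 among 5 of 8 at 0, B cell markers to 0.0938 (5 of 7 at 0), fibroblast markers to 2.53 (1 of 8 at 0) and myeloid markers to 29.1 (6 of 12 at 0, CD14 among them). The melanocytic markers PMEL and MLANA were near 0 in every group. The part of RNA from T cells or of doublets in the results was not tested, and no doublets were taken out.

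Many genes separated 7-gene from parental cells, which also differed in depth and library. Of 8111 genes compared, 755 (9.31%) were called higher and 758 (9.35%) lower, or 849 and 538 with TMM scaling, which moved the share of higher calls from 49.9% to 61.2%. Of the rule genes, AREG was 40.2-fold, EGR1 38.7-fold, BMP2 33.3-fold, ESM1 31.3-fold, IL1RL1 17.6-fold and TMEM158 15.2-fold the parental level. These genes chose the 7-gene cells and not the parental cells, so these folds are raised by the rule and are given as a description. FERMT1 was 26.7-fold and ACPP 370.3-fold the parental level. Of the gene lists, all 24 interferon-gamma response genes compared were called higher. Of 15 heat shock protein genes, 12 were called lower and 0 higher, and of 41 S phase genes, 21 lower and 0 higher. Of 52 G2 and M phase genes, 7 were called lower and 0 higher, a share not far above the 9.35% over all genes. Their median was -0.63, beside -0.18 for all genes of this contrast.

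Cells with other genes that vary among persister cells were found inside and outside the 7-gene group. At 5000 UMIs, LCE1E was detected in 14.1% of 7-gene cells (12.2 to 16.1%) and 5.97% of comparison cells (4.98 to 7.10%), against 0.0110% of parental cells. The cell with the most held 186 LCE1E UMIs in the 7-gene and 55 in the comparison group. CXCL10 was detected in 10.5% (8.88 to 12.4%) and 16.4% (14.8 to 18.1%), and NUPR1, a stress-induced gene, in 13.1% and 9.26%. NGFR, the low-affinity nerve growth factor receptor, was detected in 3.09% and 4.63%. IL6 was detected in 2.61% and 1.34%.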

How the data were processed

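The deposited files hold UMI counts per gene and barcode for 1 parental and 1 CTL persister library, not normalized by the authors. The submitters' processing notes name Cell Ranger 3.1.0 and GRCh38; the counting annotation was not given in the sources used here. The members and gene lists were chosen with earlier results of these data known. Barcodes with 5000 UMIs or more, of which at most 20% came from mitochondrial genes, were used. UMIs were summed per group and scaled to counts per 1000000 (CPM), with exact Poisson intervals for levels and Clopper-Pearson intervals for shares. Genes with at least 10 CPM in either group were compared on log2(CPM + 1) and called at 2-fold. Weighting to depth used 10 classes, and joint weighting 2 classes of depth by 3 of G2 and M phase UMIs. TMM factors came from edgeR 4.0.16, whose models were not used since there was no replicate. Named genes were the 7 rule genes, the 15 highest and 10 lowest outside the rule at 20 CPM or more (mitochondrial, ribosomal and clone-named genes left out), up to 3 members of each of 43 lists by size of difference, and a fixed set; others named were chosen after their values were seen. Positions come from GENCODE 29, and upstream sequences from RefSeq (GRCh38.p14). The steps were checked on simulated counts.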

Additional observations from a re-analysis of the deposited data

How the results depend on the processing

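The number of 7-gene cells was 320 when cells were thinned to 5000 UMIs, 245 when all 3 of AREG, EGR1 and SERPINB2 were required and 465 with 5 or more of the 7 genes; the parental numbers were 1, 0 and 0, and 1 without the 5% deepest cells. Against the 146 genes called higher and 26 lower, weighting to depth gave 69 and 54 (its smallest class held 7 comparison cells), thinning to 5000 UMIs 78 and 88, choosing cells on one random set of their UMIs and measuring the other 87 and 43, and comparison with all non-members 17 and 5. A pseudocount of 5 gave 86 and 12, a minimum of 50 CPM 66 and 6, and a 1.5-fold call 341 and 235. The higher calls numbered 59 under joint weighting to depth and G2 and M phase UMIs (smallest class 43 cells), 82 in cells at or under and 36 in cells above the median of those UMIs. The lower calls numbered 41 with a pseudocount of 0.1 and 83 without a CPM minimum. Against parental cells, the higher and lower calls were 352 and 285 at 50 CPM, 1186 and 1214 without a minimum and 1282 and 2039 at 1.5-fold, and a pseudocount of 5 gave 475 lower. Signs turned for UBE2C (-0.021), CDCA3 (-0.15) and EXO1 (-0.064) under joint weighting, for HJURP (-0.082) in cells with few G2 and M phase UMIs and for CCL3 (0.21) without cells with T cell markers. TMM scaling moved the median of all genes from -0.04 to 0.05, and ended no call among 51 named genes past 2-fold. Of the same 51 calls, 33 were lost against all non-members, 25 in cells with many G2 and M phase UMIs and 22 with joint weighting. Weighting to depth, thinning and the cells with few G2 and M phase UMIs each lost 19. The random split of UMIs lost 8, removal of cells with T cell markers 5, removal of LCE1E cells 2 and the mean over cells 1. Leaving out the 5% deepest cells lost 0. Joint weighting, the subset with many G2 and M phase UMIs and the removal of LCE1E cells were chosen after seeing the data. The cause was not tested for any of these. No paired analysis was possible because each group has 1 library. Levels near 10 CPM are limited by depth, and shares of cells by the 5000 UMIs kept.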

Other observations

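Several gene groups held few or no called genes between 7-gene and comparison cells. Of 22 integrated stress response genes, none was called in either direction, with a median of 0.10; GDF15, a secreted stress signal, stood at 83.9 against 52.4 CPM, and DDIT3, the stress factor CHOP, at 412.2 against 416.3. None of 11 heat shock protein genes, 15 hypoxia and glycolysis genes, 23 nuclear-encoded respiratory chain genes or 15 oxidative stress genes was called. Of 14 NF-kB target genes none was called; BCL2A1, an anti-apoptotic relative of BCL2, came closest, at 170.6 against 88.8 CPM and 0.546 in parental cells, and its difference of 0.93 was 1.32 with weighting to depth and 1.08 with joint weighting, past the call. Of 10 inflammatory cytokines and chemokines compared, CXCL2 was called higher (20.8 against 9.05 CPM), a call lost with weighting to depth (0.83) and joint weighting (0.76), while CXCL8 stood at 128.2 and 112.2 and LIF at 114.8 and 104.8. CXCL3 stood at 45.7 against 30.6 CPM. Its difference of 0.56 was past the call with weighting to depth (1.02) but not with joint weighting (0.93).

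Of 16 matrix and protease genes compared, 1 (MMP9) was called higher and 0 lower. TIMP1, the inhibitor of metalloproteinases, stood at 9070 CPM in 7-gene, 5976 in comparison and 357.5 in parental cells, and MMP9, a gelatinase, at 20.7 against 9.38, a call lost with weighting to depth (0.74) and joint weighting (0.69). TIMP1 was past the call under joint weighting. SPARC, a matrix glycoprotein, stood lower at 163.5 against 293.8 CPM, COL4A1, a basement membrane collagen, at 48.7 against 86.5, and THBS1, thrombospondin 1, at 127.5 against 222.9. Among secreted genes linked to blood vessels, VEGFC, the lymphatic growth factor, was called higher at 22.6 against 10.2 CPM, a call lost with weighting to depth and joint weighting (0.85 in both). WNT5A stood at 13.6 against 25.04 CPM.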
